A study of Arabidopsis thaliana with 4 samples.

Results

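IGN35 is 1 of the 7 intergenic loci at which the 3′ ends of transcripts of RNA polymerase V (Pol V) were read in Arabidopsis thaliana. All sequenced reads that the authors assigned to the locus name IGN35 were taken, each read once. They came from 4 libraries, 1 per genotype, all in the Col-0 ecotype: wild type (Col-0 in the figures), the Pol V mutant nrpe1-11, and rrp6L1-1 and rrp6L1-2, which are independent mutant alleles of the exonuclease gene RRP6L1. The RNA was from the above-ground parts of soil-grown plants aged 2.5 weeks, kept under long days (16 hours light, 8 hours dark). How many plants were pooled is not given in the sources used here, and reads from 7 chosen loci hold no tissue markers to check.

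Pol V is a plant polymerase whose noncoding transcripts stay near their template and serve as a scaffold for RNA-directed DNA methylation, the pathway in which small RNAs held by ARGONAUTE proteins pair with the scaffold and recruit a DNA methyltransferase. NRPE1 is the largest subunit of Pol V, so nrpe1-11 serves as the control without the polymerase. RRP6L1 is a relative of RRP6, a 3′-to-5′ exonuclease known from yeast as a partner of the nuclear exosome, the complex that trims and degrades RNA from its 3′ end. The comparison asks where the RNA of IGN35 ended when this exonuclease was mutated.

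In 3′ RACE, RNA is given a poly(A) tail, copied from an oligo(dT) primer and amplified from a primer inside the transcript, so that the end of each read marks where an RNA stopped. The transcript length of the authors counts, in nt, from a fixed position, 6549083 on chromosome 4 (TAIR10), and rises along the plus strand. Whether that position is the start of the RNA or is set by the nested primer was not tested, so every length below is a distance from it and not a full transcript length. Ends lay between chr4:6549083-6549317. No annotated gene of TAIR10.1 overlapped this stretch. On its upstream side, AT4G10600, annotated as a zinc finger protein of the RING/FYVE/PHD superfamily and transcribed the opposite way, began 205 nt away. On the other side, AT4G10603, annotated as defensin-like, began 1605 nt away.

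The sequence of that stretch (RefSeq, TAIR10.1, plus strand, 5′ to 3′) is shown to place the ends described below. Capitals mark the last base before the tail at 15 end positions, those that held most ends or differed most from wild type.
IGN35 window: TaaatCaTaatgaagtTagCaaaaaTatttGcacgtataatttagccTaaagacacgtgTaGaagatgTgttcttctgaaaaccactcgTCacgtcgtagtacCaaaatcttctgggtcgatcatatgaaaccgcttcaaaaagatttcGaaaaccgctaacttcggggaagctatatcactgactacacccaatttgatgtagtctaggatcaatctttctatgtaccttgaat

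Sequence around 8 ends on which the results turn is shown with the end base in capitals. The first 4 stand directly before a run of at least 4 genomic A.
20 nt: atgaagttagCaaaaatattt
104 nt: gtcgtagtacCaaaatcttct
138 nt: gaaaccgcttCaaaaagattt
150 nt: aaaagatttcGaaaaccgcta
31 nt: aaaaatatttGcacgtataat
69 nt: gtagaagatgTgttcttctga
90 nt: aaaccactcgTcacgtcgtag
91 nt: aaccactcgtCacgtcgtagt

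The IGN35 reads numbered 14377 in wild type, 20026 in rrp6L1-1 and 13641 in rrp6L1-2. In nrpe1-11 there were 3, which was 0.00121% of a library of 248940 reads (exact 95% interval 0.000249% to 0.00352%). That library was almost wholly IGN23 product, with 248926 reads, and each of the other 6 loci held between 0 and 4 reads in it. The near absence of IGN35 reads was therefore shared by every locus but IGN23, and the depth of nrpe1-11 came from IGN23. Over the other libraries its share was 10.2% in wild type, 18.2% in rrp6L1-1 and 15.3% in rrp6L1-2. Because PCR products were pooled, such shares were not taken as RNA levels.

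By the middle of the distribution, IGN35 RNA ended closer to this fixed position in both rrp6L1 mutants. The median length was 43 nt in wild type (exact 95% interval from order statistics, 43 to 47 nt), 29 nt in rrp6L1-1 (interval 26 to 29 nt) and 28 nt in the rrp6L1-2 library (interval 20 to 30 nt). Relative to wild type, rrp6L1-1 was displaced by -14 nt, with a 95% interval for counting error of -22 to -9 nt. The displacement of rrp6L1-2 was -15 nt, with an interval of -28 to -8 nt. A single wild-type library served as the reference for both alleles. The alleles differed from each other by -1 nt (rrp6L1-2 minus rrp6L1-1, -9 to 4 nt), an interval that includes 0. Over 13 other ways of processing the reads this difference ran from -16 to 1.73 nt, and not all of the intervals included 0. By the mean it was 1.73 nt (1.02 to 2.44 nt). Each genotype is a single library, so these differences were checked against no replicate and no p-value is given. Reads were amplified by nested PCR without molecular identifiers, so copies of the same RNA may have been counted as separate reads. All intervals therefore cover the counting error of reads alone, and intervals for RNA molecules may be wider.

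The displacement was not a shift of the whole profile: the lower quartile was the same in the 3 libraries and the upper quartile was not. The length below which 25% of the ends lay was 17 nt in all 3 libraries. For 75% of the ends it was 90 nt in wild type against 52 nt in rrp6L1-1 and 60 nt in its sister allele. The upper quartile of rrp6L1-1 was displaced by -38 nt and that of rrp6L1-2 by -30 nt. At 90% the lengths were 104, 91 and 90 nt. The shared 25% point fell on a single frequent end at 17 nt, which held 8.67%, 8.58% and 15.8% of the ends. An equal lower quartile therefore does not mean equal short ends: those of 1 to 10 nt made up 21.1%, 20.1% and 14.4%. The gap between the cumulative curves was widest at 58 nt for rrp6L1-1, by which 57.6% of the wild-type ends and 80.8% of the mutant ends had been counted. For rrp6L1-2 it was widest at 70 nt, with 68.8% of the wild-type ends against 89.5%.

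**Figure D1:**
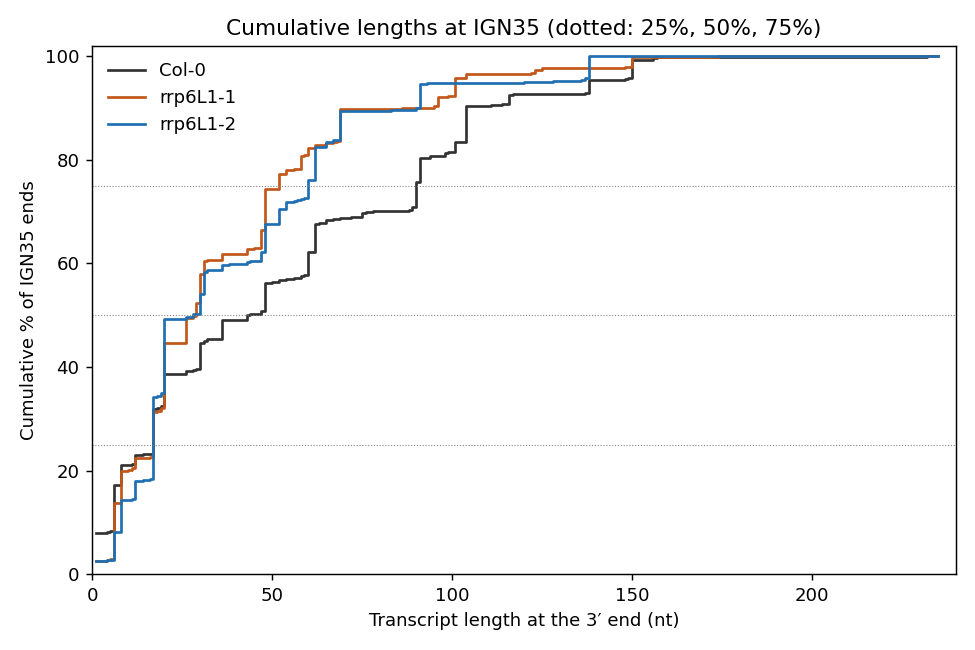
Cumulative percentage of IGN35 ends (y axis) up to each transcript length in nt (x axis), 1 line per library. The 3 lines meet near 17 nt at the lowest dotted line (25%), and the wild-type line lies below both mutant lines between 20 and 100 nt, reaching 75% at 90 nt against 52 and 60 nt.

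The wild-type median lay in a stretch where few RNAs ended. Up to 36 nt, 49.0% of the wild-type ends had been counted, and only 1.82% fell between 37 and 47 nt. A small difference in the shares on either side therefore moves this median by many nt. The mean does not depend on that stretch. It was 52.3 nt in wild type, 37.7 nt in rrp6L1-1 and 39.4 nt in rrp6L1-2, differences of -14.6 and -12.9 nt.

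Divided into bands of length, the profile of both mutants held more ends of 11 to 30 nt and fewer beyond 100 nt. The band from 11 to 30 nt held 23.6% of the ends in wild type (exact 95% interval 22.9% to 24.3%), 37.9% in rrp6L1-1 (37.2% to 38.6%) and 39.7% in rrp6L1-2 (38.9% to 40.6%). Beyond 100 nt lay 18.5% in wild type (17.8% to 19.1%), 7.57% in rrp6L1-1 (7.21% to 7.95%) and 5.24% in rrp6L1-2 (4.87% to 5.63%). In both bands the mutant libraries lay on the same side of wild type. The intervals of the mutants did not reach that of wild type, but they cover counting error alone and not the spread between libraries. The excess at 11 to 30 nt depended on a few positions. Without positions before a genomic A it was 2.50 percentage points in rrp6L1-1 and turned to -4.17 points in rrp6L1-2, and with the top position of every library removed it was 3.22 and 2.52 points.

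Other bands differed between the alleles. From 61 to 100 nt lay 19.4% of the ends in wild type, 10.1% in rrp6L1-1 and 18.7% in rrp6L1-2, so that rrp6L1-2 was close to wild type and rrp6L1-1 was not. From 1 to 10 nt the order was different, with 21.1% in wild type, 20.1% in rrp6L1-1 and 14.4% in rrp6L1-2. Here rrp6L1-1 was the library close to wild type. Between 31 and 60 nt the shares were 17.4%, 24.3% and 21.9%, both mutants above wild type.

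**Figure D2:**
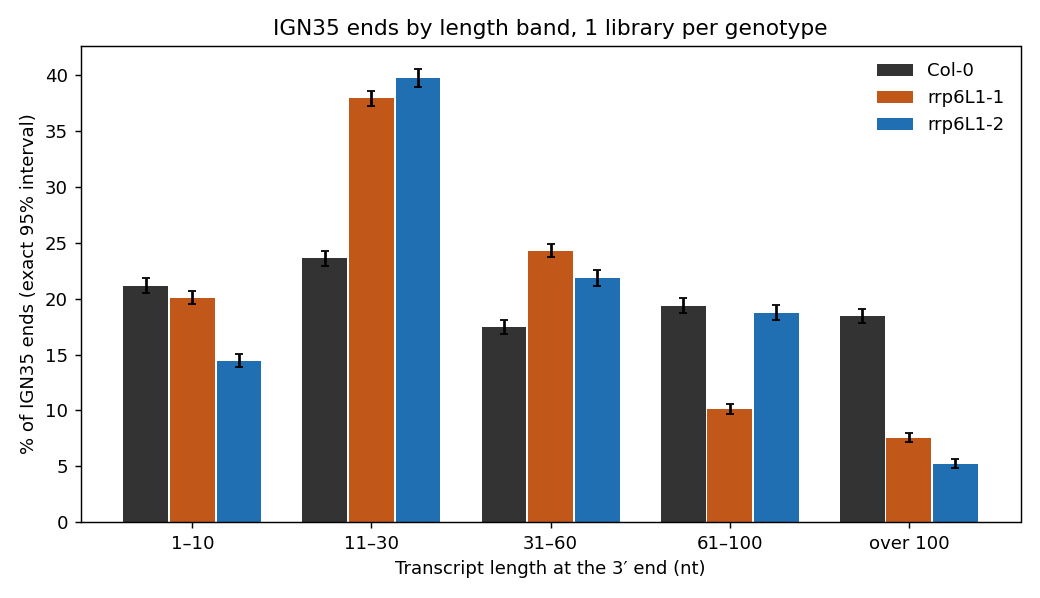
Percentage of IGN35 ends (y axis) in 5 bands of transcript length in nt (x axis), 1 bar per library, with exact 95% intervals for counting error. The bars of both mutants stand above wild type at 11 to 30 nt and below it beyond 100 nt, while at 61 to 100 nt rrp6L1-1 alone is clearly lower.

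The difference in mean length can be divided among the bands by multiplying each change in share by the distance of that length from the wild-type mean. Ends beyond 100 nt contributed -7.81 of the -14.6 nt in rrp6L1-1 and -8.51 of the -12.9 nt in rrp6L1-2. Ends of 11 to 30 nt contributed -4.13 and -5.69 nt. The long ends thus made the largest contribution of the 5 bands in both alleles. Much of it came from positions before runs of at least 4 genomic A. In rrp6L1-1, the ends at 104, 138 and 150 nt contributed -3.29, -2.15 and -1.64 nt. In rrp6L1-2 they contributed -3.63, 1.50 and -3.41 nt. Ends of 1 to 10 nt worked the other way, with 0.795 and 3.42 nt, because the mutants held fewer of them.

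IGN35 RNA ended at preferred positions rather than evenly. Over the 3 libraries 155 positions held at least 1 end, and 28 held at least 1% of the ends in at least 1 library. The 15 positions marked in the sequence were the 5 most frequent of each library together with those differing from wild type by at least 2-fold and 3 percentage points in either allele. They held 71.8% of the ends in wild type, 66.5% in rrp6L1-1 and 74.4% in rrp6L1-2. Since the shares chose these positions, their values are a description. Closest to the limit, 60 nt in rrp6L1-1 lay inside it at -3.04 points and 47 nt lay outside at 2.88 points. In rrp6L1-2, 150 nt lay inside at -3.49 points and 52 nt outside at 2.51 points.

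**Figure D3:**
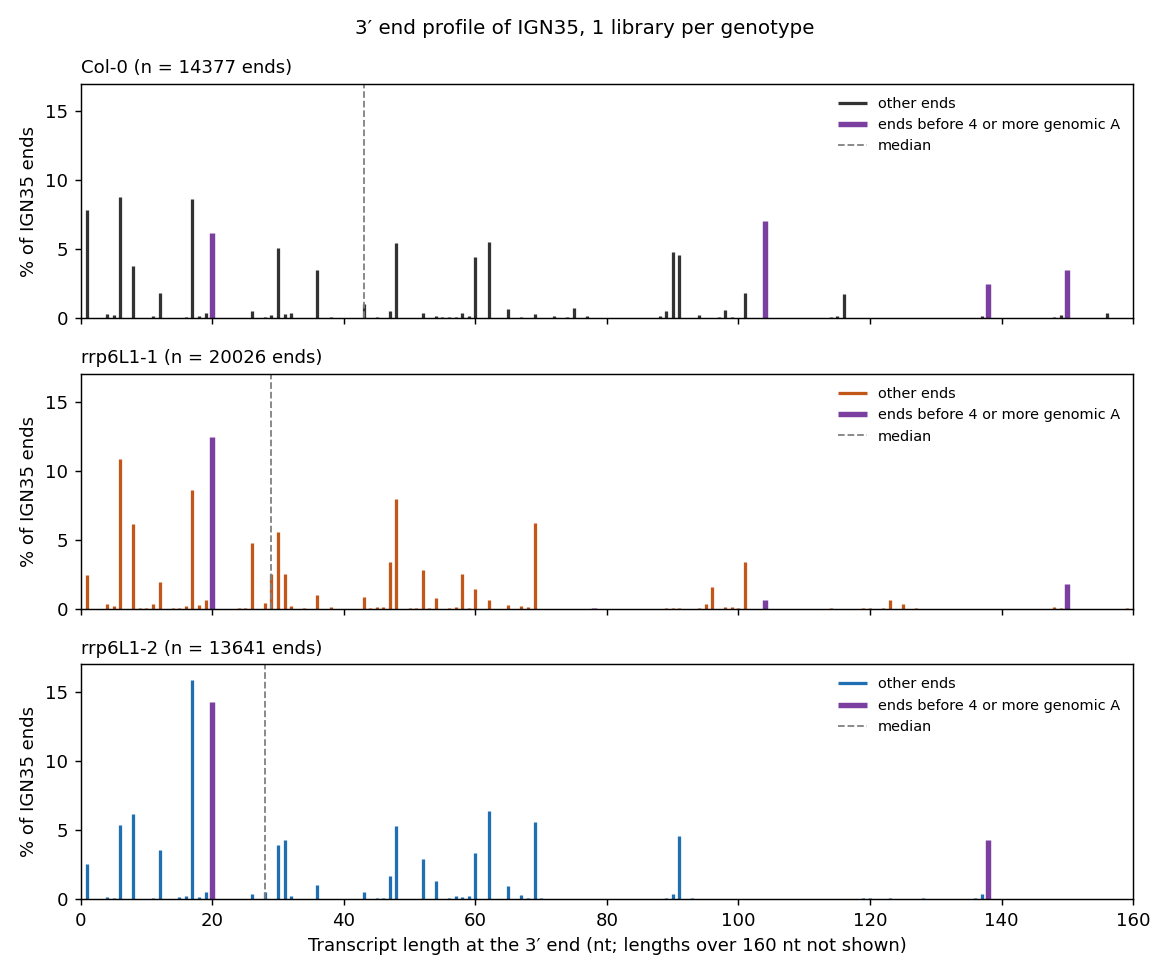
Percentage of IGN35 ends (y axis) at each transcript length up to 160 nt (x axis), 1 panel per library, with ends before 4 or more genomic A in purple and the median as a dashed line. The purple line at 20 nt is taller in both mutants (12.4% and 14.3%) than in wild type (6.16%). Further along, wild type has purple lines at 104, 138 and 150 nt. Of these, rrp6L1-1 has those at 104 nt (0.649%) and 150 nt (1.81%), and rrp6L1-2 has that at 138 nt (4.26%).

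Close to the fixed position, several ends were frequent in all 3 libraries. At the position itself, 1 nt, lay 7.88% of the ends in wild type, 2.48% in rrp6L1-1 and 2.55% in rrp6L1-2, so both mutants held fewer. The end at 6 nt was the most frequent of wild type with 8.81%, and held 10.8% in rrp6L1-1 and 5.37% in rrp6L1-2. At 17 nt lay 8.67%, 8.58% and 15.8%, the last being the most frequent end of rrp6L1-2. The end at 8 nt had 3.78%, 6.12% and 6.15%. Of these, 6 nt was on opposite sides of wild type in the alleles, 17 nt was above it in rrp6L1-2 alone, and 8 nt was above it in both by about the same amount.

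The most frequent end of rrp6L1-1 was at 20 nt (position 6549102), the C before a run of 5 A. It held 886 of 14377 ends in wild type (exact 95% interval 5.77% to 6.57%), 2492 of 20026 in rrp6L1-1 (12.0% to 12.9%) and 1944 of 13641 in rrp6L1-2 (13.7% to 14.8%). The share at 20 nt was thus 2.02 and 2.31 times that of wild type.

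Some ends that were rare in wild type were frequent in the mutants. At 69 nt (position 6549151) lay 42 ends in wild type, 1246 in rrp6L1-1 and 763 in rrp6L1-2, which were 21.3 and 19.1 times the wild-type share. At 31 nt the shares were 0.306% in wild type, 2.51% in rrp6L1-1 and 4.26% in rrp6L1-2. Neither 69 nor 31 nt stands before a genomic A, so trimming of the tail into genomic A does not blur their position. Further along, 48 nt was frequent throughout, with 5.49%, 7.94% and 5.31%. The end at 26 nt was frequent in rrp6L1-1 alone, at 4.78% against 0.501% in wild type and 0.359% in rrp6L1-2.

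Among long ends that were frequent in wild type, 90 and 104 nt held smaller shares in both mutants, whereas 62 nt did so in rrp6L1-1 and not in rrp6L1-2. At 104 nt (position 6549186) lay 1009 ends in wild type, 130 in rrp6L1-1 and 0 of 13641 in rrp6L1-2, which allows a share of up to 0.0270% by the exact interval. The neighbouring ends at 90 and 91 nt are 1 nt apart in the genome, yet both alleles were far below wild type at 90 nt and only rrp6L1-1 at 91 nt. At 90 nt the shares were 4.80% in wild type, 0.0250% in rrp6L1-1 and 0.381% in rrp6L1-2. At 91 nt they were 4.62%, 0.0549% and 4.57%, so rrp6L1-2 held about the wild-type share at 91 nt and rrp6L1-1 did not. The ends at 60 and 62 nt were likewise low in rrp6L1-1. At 62 nt lay 5.51% in wild type, 0.629% in rrp6L1-1 and 6.37% in rrp6L1-2, and at 60 nt 4.45%, 1.41% and 3.35%. The opposite order was seen at 101 nt, a position chosen after its values were seen, with 1.87% in wild type, 3.40% in rrp6L1-1 and 0.00733% (1 end) in rrp6L1-2.

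**Figure D4:**
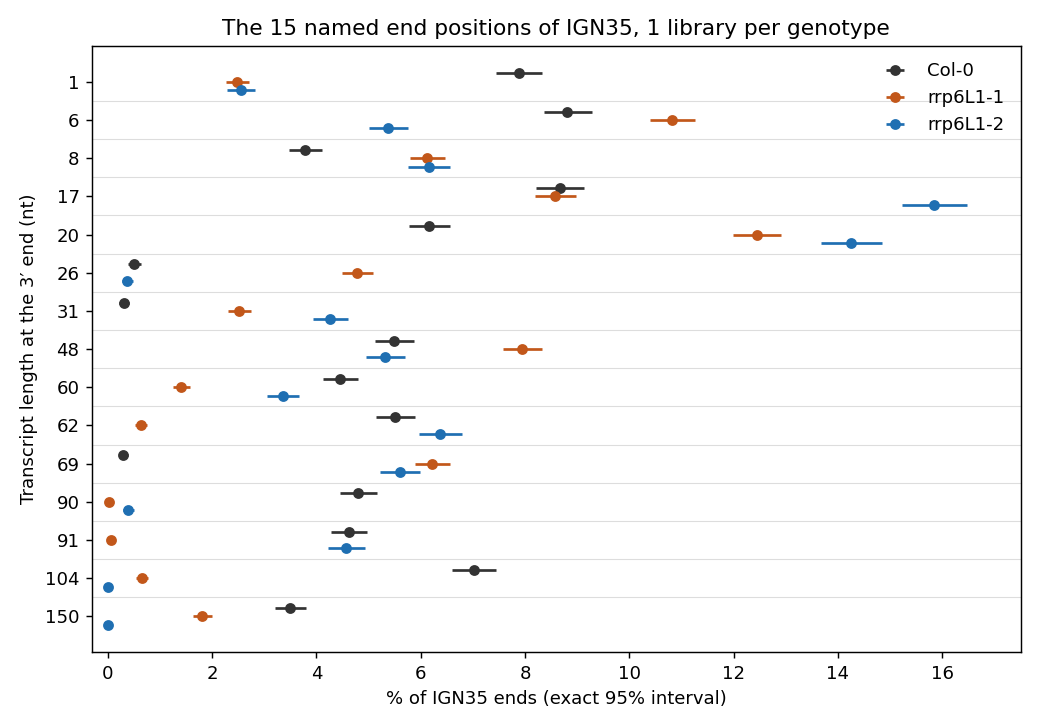
Percentage of IGN35 ends (x axis) at each of the 15 named transcript lengths (y axis, nt), 1 point per library with its exact 95% interval. Points of both mutants lie together and to the right of wild type at 20 and 69 nt, and to its left at 1, 90 and 104 nt, whereas at 17, 26, 62 and 91 nt the mutants lie apart.

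A count over the 28 positions with at least 1% of the ends shows how common such differences were. In rrp6L1-1, 10 of the 28 were at least 2-fold above wild type and 9 at least 2-fold below, where over the 180 such positions of all 7 loci 40.6% were above and 28.9% below. In rrp6L1-2, 6 were above and 9 below, against 32.8% and 37.8% over all loci. Counts of 10 and 9 are 35.7% and 32.1% of the IGN35 positions, and counts of 6 and 9 are 21.4% and 32.1%. Between the alleles, 5 positions were at least 2-fold higher in rrp6L1-2 and 9 lower, against 23.9% and 35% over all loci. Differences of 2-fold at a single position were thus common at every comparison of these libraries and are no mark of IGN35.

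Genomic A bears on these ends. The last base was an A for 1.19%, 1.29% and 0.799% of the ends in wild type, rrp6L1-1 and rrp6L1-2, while A made up 33.6% of the stretch. Trimming a poly(A) tail also removes the genomic A that touch it. The next base was an A for 79.9% of the ends in wild type, 70.7% in rrp6L1-1 and 79.5% in rrp6L1-2. Of the positions at a base other than A, 30.8% had an A next. That share makes no allowance for ends trimmed back from within a run of A, so it is not a matched expectation. At the other loci, 59.7% (IGN5t) to 87.3% (IGN5b) of the wild-type ends stood before a genomic A. An RNA recorded before a run of A may have ended anywhere within it. Moving every end to the last A of the run that follows changed the displacements to -15 and -16 nt.

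Ends before runs of at least 4 A were distributed differently along the locus in wild type and mutants. Ends before them made up 19.2% of the total in wild type, 15.0% in rrp6L1-1 and 18.5% in rrp6L1-2, at 7 positions, of which 20, 104, 138 and 150 nt held nearly all. Beyond 100 nt, such ends were 13.0% of the total in wild type, 2.46% in rrp6L1-1 and 4.26% in rrp6L1-2. Up to 100 nt they were 6.20%, 12.5% and 14.3%. The mutants thus held such ends mostly at 20 nt, and wild type mostly at the 3 distal runs.

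The distal runs without an end differed between the mutants. The end at 138 nt, which is outside the naming rule and was chosen after its values were seen, held 2.50% in wild type, 0 of 20026 ends in rrp6L1-1 (allowing up to 0.0184% by the exact interval) and 4.26% in rrp6L1-2. The end at 150 nt held 3.49% in wild type, 1.81% in rrp6L1-1 and 0 of 13641 ends in rrp6L1-2 (allowing up to 0.0270%). So rrp6L1-1 had no end at 138 nt and rrp6L1-2 had none at 104 or 150 nt, while wild type held 1009, 360 and 502 ends at 104, 138 and 150 nt.

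Without the positions before 4 or more A, the upstream displacement was smaller, an alternative chosen after seeing the data. The median became 36 nt in wild type and 30 nt in rrp6L1-1, a displacement of -6 nt, and 31 nt in rrp6L1-2, a displacement of -5 nt. Ends beyond 100 nt then made up 6.73% in wild type, 6.01% in rrp6L1-1 and 1.21% in rrp6L1-2. The deficit of long ends in rrp6L1-1 thus fell from -10.9 to -0.719 percentage points (counting interval -1.54 to 0.0972), and that of rrp6L1-2 from -13.2 to -5.52. Oligo(dT) can anneal to A runs within an RNA as well as to an added tail, and the part of such priming in these ends was not tested.

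The deposited mapping quality score also varied with length. Reads with the highest score, 44, made up 85.2% of the wild-type ends of 11 to 30 nt and 70.0% of those beyond 100 nt. In rrp6L1-2 these shares were 88.7% and 45.0%. Among reads with this score alone, the medians were 30, 26 and 20 nt and the displacements -4 and -10 nt. Ends beyond 100 nt then made up 16.9%, 6.06% and 2.92%, so that the deficits of long ends, -10.9 and -14.0 percentage points, stood beside -10.9 and -13.2 points among all reads. The part of the score in the displacement was not tested.

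**Figure D5:**
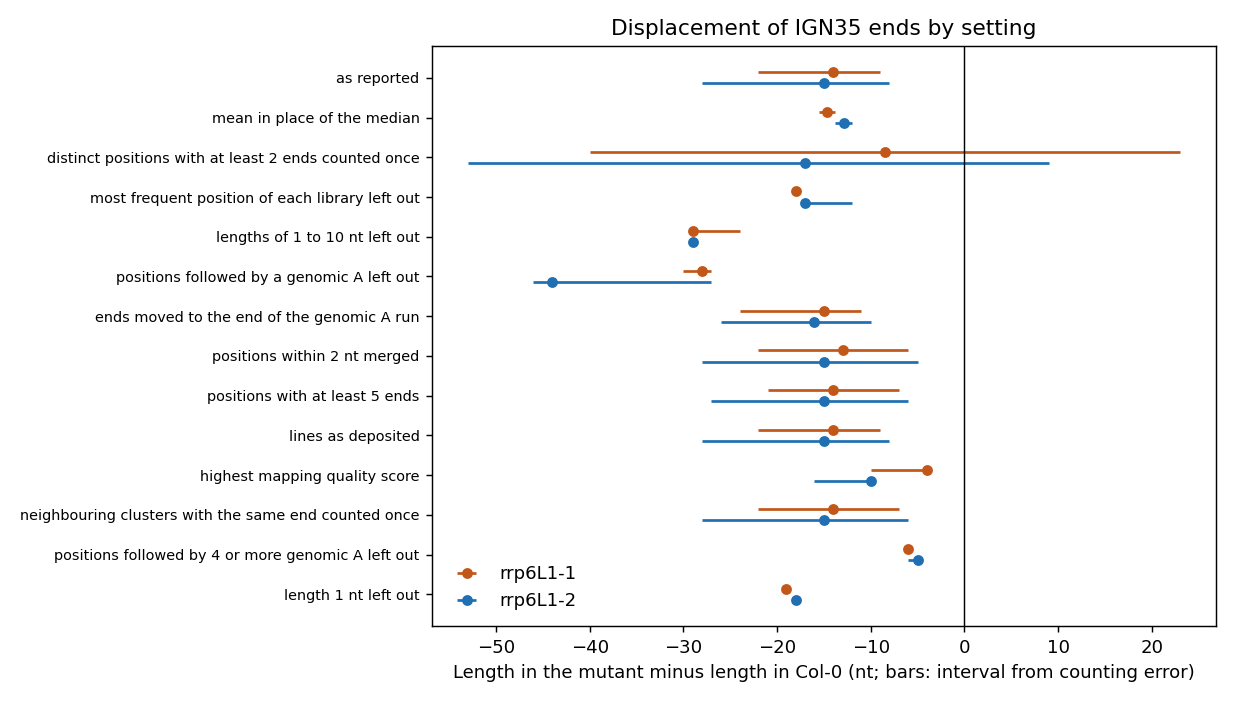
Displacement of IGN35 ends from wild type in nt (x axis; negative is upstream) under each way of processing the reads (y axis), 1 point per mutant with an interval for counting error. Every point lies left of 0, from -4 to -44 nt, and the intervals cross 0 where each distinct position was counted once.

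By 2 measures of the whole profile, the alleles resembled each other more than either resembled wild type. The mean distance by which ends would have to be moved along the locus to turn one profile into the other was 3.80 nt between the alleles, 15.5 nt between wild type and rrp6L1-1 and 14.8 nt between wild type and rrp6L1-2. Position by position, the alleles had 67.5% of their ends in common, wild type and rrp6L1-1 57.1%, and wild type and rrp6L1-2 61.4%. By count the alleles were hardly closer: 14 of the 28 positions differed at least 2-fold between them. From wild type, 19 did so in rrp6L1-1 and 15 in rrp6L1-2. The same wild-type library stands in both comparisons.

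By their effective number, IGN35 ends were spread over more positions than those of most other loci. The effective number of positions, which is the number of equally used positions that would be as concentrated, was 19.5 in wild type, 16.4 in rrp6L1-1 and 13.5 in rrp6L1-2. IGN35 ranked first of the 7 loci by this number in wild type and second after IGN23 in both mutants. Thinned to 13641 ends, the 3 libraries would hold 133, 112 and 91 distinct positions. The number was thus lower in both mutants than in wild type by both measures, and no test of it can be made with 1 library per genotype. Without thinning, the distinct positions in rrp6L1-2 were 91 at IGN35 and 91 at IGN5t, 112 at IGN25, 99 at IGN29 and 98 at IGN23. They were 74 at IGN17 and 70 at IGN5b. The rank of IGN35 thus rests on the effective number.

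Of the other 6 loci, IGN23 was most like IGN35 in the way its median moved, by the distance between the pairs of displacements over the 2 mutant libraries. Its displacements were -8 and -29 nt, at a distance of 15.2 nt from those of IGN35. The alleles thus differed by more at IGN23 than at IGN35, where the displacements were within 1 nt of each other. Such closeness was no mark of IGN35. The 2 displacements were 0 and -1 nt at IGN29, 8 and 8 nt at IGN5b, and 24 and 24 nt at IGN25. They lay further apart at IGN17 (1 and 13 nt) and at IGN5t (11 and 6 nt).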

How the data were processed

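3′ ends were read by 3′ RACE in 4 libraries, 1 per genotype. The authors deposited 1 line per read with a mapping quality score, the position of the 3′ end and a length in nt, per the file headers. Per the submitters' processing notes, the TAIR10 genome and the tools Bowtie2, SAMtools, bedtools, cutadapt 1.9.1 and bcl2fastq 2.16.0.10 were used, with no settings given. Libraries held 89304 to 248940 reads after repeated lines were dropped, of which IGN35 had 0. The deposited strand is minus, while the length rises along the plus strand. The RefSeq sequence of chromosome 4 (TAIR10.1, 18585056 nt) was read with these coordinates.

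Lines named IGN35 were analysed with Python 3.11.15, numpy 2.4.6, pandas 2.3.3 and scipy 1.17.1. Intervals of medians came from order statistics, those of displacements from both medians' 97.5% intervals, and those of shares from the Clopper-Pearson method, all for counting error only. For folds, a library with fewer than 3 ends at a position was counted at 3. The calculation of displacements was tested on simulated data in which every resampled wild-type end was moved by the same known shift. That setting differs from these libraries, where only part of the profile was displaced and reads were PCR copies. The locus, positions and lists were chosen with earlier results of these data known. Named positions were the 5 most frequent per library and those differing from Col-0 by at least 2-fold and 3 percentage points. No test was possible with 1 library per genotype.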

Additional observations from a re-analysis of the deposited data

Results flagged for a closer look

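Of the 28 IGN35 positions with at least 1% of the ends in a library, 2 differed from wild type in opposite directions in the alleles. Each was at least 2-fold above wild type in one rrp6L1 allele and at least 2-fold below it in the other. The difference was not tested. The share of such positions over all 7 loci was not counted, so the number 2 cannot be called high or low. The end at 29 nt held 2.50% in rrp6L1-1, 0.223% in wild type and 0.0220% in rrp6L1-2, the last resting on 3 reads. The end at 58 nt held 2.52% in rrp6L1-1, 0.376% in wild type and 0.169% in rrp6L1-2.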

How the results depend on the processing

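The upstream direction of the IGN35 medians held in both alleles under the 13 alternatives, over -29 to -4 nt in rrp6L1-1 and -44 to -5 nt in rrp6L1-2. The intervals included 0 where each distinct position was counted once. Keeping repeated lines, counted among the alternatives here and below, could change nothing because IGN35 had no such lines. The displacements in rrp6L1-1 and rrp6L1-2 were -29 and -29 nt without lengths of 1 to 10 nt, and -28 and -44 nt without positions before a genomic A, where the alleles then differed by -16 nt. Without positions before 4 or more A, chosen after seeing the data, they were -6 and -5 nt. In rrp6L1-1 alone, the highest mapping score gave -4 nt and distinct positions -8.5 nt (counting interval -40 to 23 nt). The other settings left each displacement inside its interval. The excess of ends of 11 to 30 nt in rrp6L1-2 turned to a deficit of -4.17 percentage points without positions before a genomic A, and in rrp6L1-1 it fell from 14.3 to 2.50 points. With the top position of every library removed it was 3.22 points in rrp6L1-1 and 2.52 points in rrp6L1-2. The deficit beyond 100 nt kept its direction under the 12 settings tried on it, from -14.7 to -0.719 points in rrp6L1-1 and from -17.3 to -5.52 points in rrp6L1-2, but with distinct positions counted once its intervals included 0 in both alleles (-20.7 to 15.0 and -28.8 to 6.37 points), as did that of rrp6L1-1 without positions before 4 or more A (-1.54 to 0.0972 points). Beyond the shares left by each filter, the cause was not tested. No paired analysis was possible because each genotype has 1 library. By the exact intervals, a count of 0 allows a share of up to 0.0270% of the ends. That limit treats every read as a separate RNA, which PCR copies are not, and the spread between plants is unknown.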
